A study of Mus musculus with 6 samples.

Results

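The genes described here encode proteins of the mitochondrial ribosome, measured in megakaryocyte progenitors from mouse fetal liver and adult bone marrow. Members were all genes whose symbol in the platform annotation begins with Mrpl or Mrps followed by a digit. Mrpl symbols are named for the large subunit and Mrps symbols for the small subunit. Only probe sets that carry a single gene symbol were used. There were 76 such genes among 18193 named genes on the array. Where a gene had several probe sets, its probe set was chosen by the highest mean log2 signal over all 6 arrays, so the mean level over both tissues was the measured value used. All 76 genes passed the filter on dim probe sets, as did 11645 genes in all. Mrpl30 and Mrpl53 are covered only by probe sets that carry a further gene symbol and were not analysed here.

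The fetal liver group held 3 arrays of progenitors taken at E13.5 of embryonic life, and the bone marrow group held 3 arrays of progenitors from adults aged 12 to 18 weeks. Every sample came from C57BL/6 mice of the GATA1s genotype, which make the amino-terminally shortened form of GATA1, the transcription factor that directs megakaryocyte and red cell development. Cells were sorted as lin-, Sca-1-, c-kit+, CD150+ and CD41+. Wild-type cells are not part of the comparison, and the genotype is shared by both groups. The labels do not say how many animals gave each sample or whether animals were pooled.

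Mitochondria keep a small genome of their own, and its messenger RNAs are translated inside the organelle by a dedicated ribosome. All protein parts of that ribosome are encoded in the nucleus, made in the cytosol and imported. Some members descend from bacterial ribosomal proteins, while others were added during mitochondrial evolution. The ribosome's products are core subunits of the respiratory chain and ATP synthase.

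The start region of Mrps11 is shown because Mrps11 had the largest difference between tissues and shares a start region with another member, Mrpl46, which lies on the opposite strand. Their annotated starts were 42 bases apart on chromosome 7 (RefSeq, GRCm38.p6). The first line below holds the 41 bases between the starts, at chr7:78783090-78783130 on the plus strand. The second holds 30 bases at chr7:78783013-78783042 on the plus strand, inside the first bases of Mrpl46. Its capitals mark a match to a motif of the factor YY1 (AANATGGCG, read from the opposite strand).
Mrps11 and Mrpl46, between the starts: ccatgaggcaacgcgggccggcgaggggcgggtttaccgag
Mrps11 and Mrpl46, YY1 motif: ctacgggcgcCGCCATCTTtctgtcttccc

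Upstream regions of 3 other members are shown to let the motifs be seen in place, each as the 250 bases before the annotated start. Mrpl22 had the next largest difference between tissues, Mrpl17 is a called gene whose window holds 2 different motifs, and Mrpl33 had the lowest log2 fold change of all members; the last 2 were chosen after their values were seen. The Mrpl22 stretch is chr11:58171414-58171663 on the plus strand, and its capitals mark the ETS and GABPA motif CCGGAAG. The Mrpl17 stretch is chr7:105811088-105811337 on the minus strand, with an ETS and GABPA motif and an NRF1 motif of 10 bases in capitals. The Mrpl33 stretch is chr5:31613701-31613950 on the plus strand. Its capitals mark a GATA motif (AGATAA, opposite strand) and the first 3 bases of an ETS and GABPA motif that runs across the start.
Mrpl22: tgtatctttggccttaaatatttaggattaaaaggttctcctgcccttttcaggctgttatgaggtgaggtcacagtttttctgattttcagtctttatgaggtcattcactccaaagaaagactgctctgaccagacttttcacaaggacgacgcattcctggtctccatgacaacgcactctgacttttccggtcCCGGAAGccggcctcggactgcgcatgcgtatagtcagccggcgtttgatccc
Mrpl17: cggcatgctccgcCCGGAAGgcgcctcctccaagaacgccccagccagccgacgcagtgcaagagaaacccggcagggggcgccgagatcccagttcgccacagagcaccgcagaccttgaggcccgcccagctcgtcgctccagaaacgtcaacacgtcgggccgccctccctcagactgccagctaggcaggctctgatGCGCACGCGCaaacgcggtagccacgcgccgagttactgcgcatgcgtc
Mrpl33: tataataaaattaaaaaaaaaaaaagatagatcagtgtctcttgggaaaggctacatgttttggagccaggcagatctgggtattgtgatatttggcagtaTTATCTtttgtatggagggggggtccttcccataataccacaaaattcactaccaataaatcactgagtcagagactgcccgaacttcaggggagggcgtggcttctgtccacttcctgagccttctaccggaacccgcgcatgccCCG

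Signals are MAS5 intensities on a linear scale, and the mean of every array, with 2% trimmed at each end, was 500 in the deposited values; the number of arrays, 3 against 3, limits the precision. Median signal was 52.0 to 59.1 on the fetal liver arrays and 65.9 to 74.6 on the bone marrow arrays. Itga2b, which encodes the sort marker CD41, had 3330 to 5307 in fetal liver and 3841 to 4912 in bone marrow. Kit, another sort marker, fell, with 959 to 1542 in fetal liver and 1793 to 1909 in bone marrow (adjusted p = 0.0141). Slamf1, which encodes CD150, had 1014, 2618 and 3024 in fetal liver and 1842 to 2303 in bone marrow, with replicate 1 the low fetal liver array (adjusted p = 0.886). Gata1 was higher, with 3931 to 4615 in fetal liver and 2453 to 3326 in bone marrow (adjusted p = 0.0138). Of 5 tested megakaryocyte markers, Itga2b among them, 1 was called higher and none lower, with log2 fold changes from -0.66 to 1.23. In 1 of the 5 all fetal liver arrays lay below all bone marrow arrays. Their summed signal was 13927 to 24467 in fetal liver and 17924 to 20558 in bone marrow. Markers of other blood cells differed between the tissues. The 8 markers of granulocytes and monocytes all fell, with a summed signal of 5903 to 7534 in fetal liver and 47822 to 60544 in bone marrow. All 5 tested lymphoid markers (139.7 to 159.9 in fetal liver against 1728 to 2953 in bone marrow), all 3 macrophage markers (229 to 253 against 862 to 1231) and all 4 mast cell and basophil markers (152 to 278 against 3602 to 3906) were lower too. Of 3 erythroid markers 2 were lower and 1 higher (1126 to 1522 in fetal liver against 3361 to 8400 in bone marrow). Of 3 endothelial markers 2 were higher (1881 to 2762 against 838 to 1007), and of 2 hepatoblast markers 1 was lower (63.6 to 107 against 219 to 274). No marker was listed at 0. The part of these cells in the results below was not tested, and in sorted bulk samples fewer cells of a type and less RNA per cell cannot be told apart.

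Mitochondrial ribosomal protein genes were higher in fetal liver, most of them by under 1.5-fold. limma called 53 of the 76 genes higher and none lower at an adjusted p of 0.05, where 17.8% of all 11645 genes were called higher, 18.3% lower and 36.1% in either direction. None of the 76 had an unadjusted p under 0.05 in the lower direction, and 64 had one in the higher direction. Each log2 fold change is the fetal liver level less the bone marrow level. It was above 0 for 72 of the 76 genes and had a median of 0.40, against 0.04 for all genes tested. Its lower and upper quartiles were 0.29 and 0.49. The called genes differed by 1.20-fold to 1.74-fold, with adjusted p-values of 8.21e-04 to 0.0491. No member reached a 2-fold difference, and 9 were both called and at least 1.5-fold higher, where 8.05% of all genes met that rule.

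The 3 fetal liver arrays lay above the 3 bone marrow arrays for 62 of the 76 genes, where 26.7% of all genes did so, and below them for none, where 23.7% did; 50.5% of all genes had no overlap either way. Those 62 include all 53 called genes. Members all had a mean signal between 597 and 5928. Among the 6280 genes tested within that range, 21.2% were called higher and 12.4% lower, with a median log2 fold change of 0.09. The summed signal of the 76 genes was 195862 to 226593 in fetal liver and 160172 to 166290 in bone marrow, so the groups did not overlap.

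**Figure D1:**
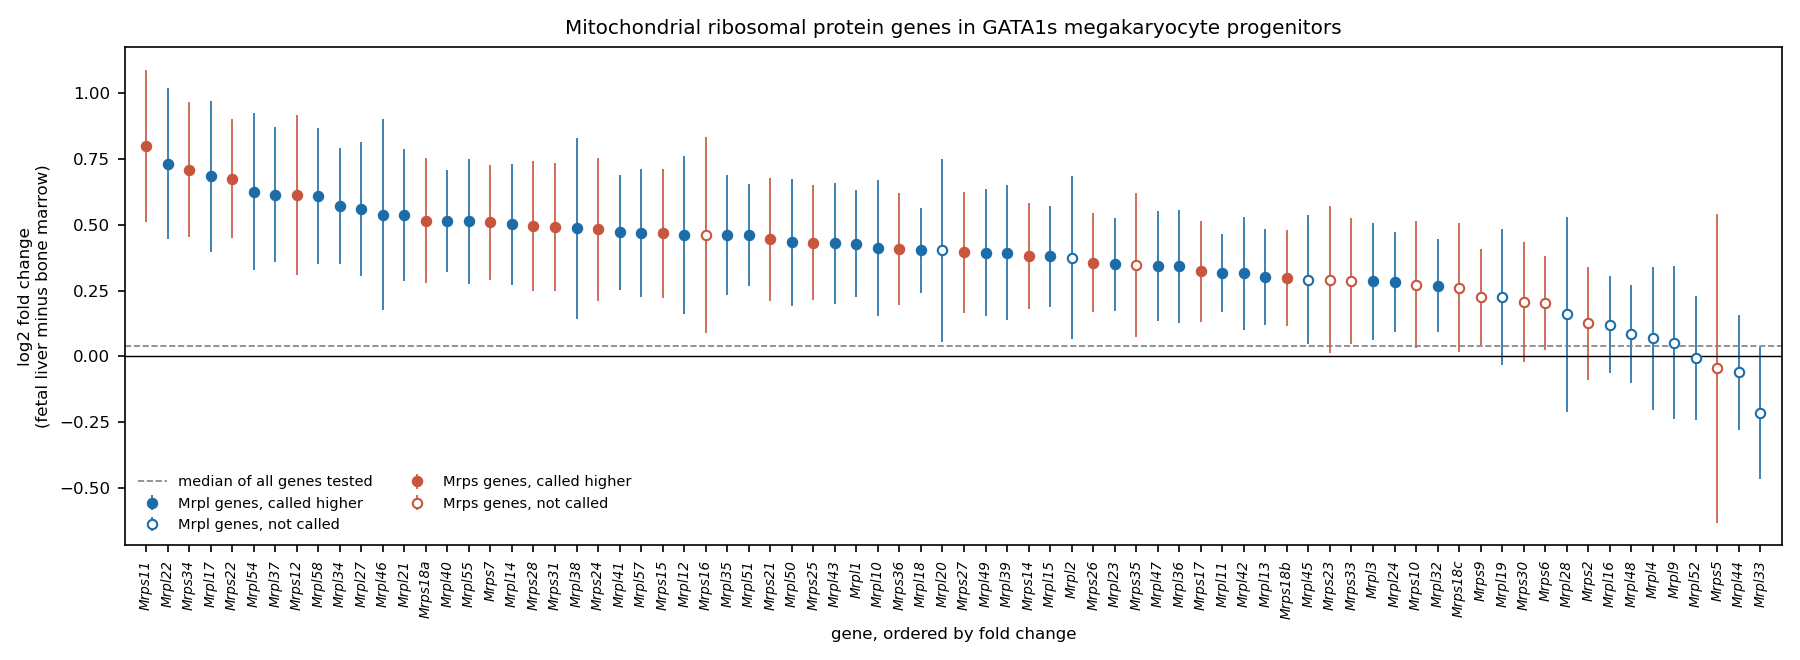
Log2 fold change (vertical axis, above 0 for higher in fetal liver) of the 76 genes in falling order, with 95% confidence intervals from limma. Filled points are the 53 genes called higher, open points the 23 genes not called, blue Mrpl and red Mrps; most points lie between 0.2 and 0.6 and 4 lie below 0.

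Both name groups, Mrpl and Mrps, contributed called genes. The symbol does not always give the subunit, as the cases of Mrps18a and Mrps36 below show. Of 47 Mrpl genes 35 were called higher, with a median log2 fold change of 0.40, and of 29 Mrps genes 18 were called higher, with a median of 0.39. Split by origin, 28 of 43 genes with a bacterial counterpart and 25 of 33 mitochondria-specific genes were called higher, with medians of 0.38 and 0.43. Mrps18a and Mrps18b, both called, were counted as mitochondria-specific although they are homologues of a bacterial protein. Mrpl47 and Mrpl55, both called, were counted as mitochondria-specific too, although they also have bacterial homologues. Mrps18c, not called, was counted as a bacterial counterpart. The counts and medians by origin depend on these placings. No test of these splits was made.

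Among small subunit genes with a bacterial counterpart, Mrps11 and Mrps12 had the largest differences. Mrps11, a protein of the platform that holds the messenger RNA, had signals of 2028, 2368 and 2319 in fetal liver and 1494, 1091 and 1295 in bone marrow. The groups were well apart, and Mrps11 rose by a log2 fold change of 0.80 ± 0.13 (SE; limma adjusted p = 0.00130). Mrps12, whose bacterial counterpart sits at the decoding centre, had 1503, 1879 and 1545 in fetal liver and 926, 1223 and 1079.7 in bone marrow. Every fetal liver array exceeded every bone marrow array here too, with a log2 fold change of 0.61 ± 0.13 (adjusted p = 0.00720).

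Mrps34 and Mrps22 led the mitochondria-specific small subunit genes. Mrps34, needed in mice for a stable small subunit, had signals of 1169.6, 1463 and 1274 in fetal liver and 787, 799 and 793 in bone marrow. The bone marrow arrays were close to each other, and the log2 fold change was 0.71 ± 0.11 (adjusted p = 0.00128). Mrps22, in which human variants cause mitochondrial disease, had 1919, 2097 and 1950.4 in fetal liver and 1134, 1266 and 1342 in bone marrow. It had the smallest adjusted p of all members, 8.21e-04, at a log2 fold change of 0.68 ± 0.10. Mrps36, named as a small subunit protein but since assigned to the 2-oxoglutarate dehydrogenase complex, also rose (0.41 ± 0.09, adjusted p = 0.00894).

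In the large subunit, Mrpl22, Mrpl17 and Mrpl34 had the largest differences among genes with a bacterial counterpart. Mrpl22, whose counterpart lines the tunnel through which the new protein leaves, had signals of 2396, 3365 and 2663 in fetal liver and 1573, 1682 and 1772 in bone marrow. Fetal liver replicate 2 was the highest array, and all 3 fetal liver arrays lay above the others (log2 fold change 0.73 ± 0.13, adjusted p = 0.00206). Mrpl17 had 3578, 5155 and 4160.3 in fetal liver and 2631, 2816 and 2497 in bone marrow. Its fetal liver arrays spread widely, yet none reached down to bone marrow (0.68 ± 0.13, adjusted p = 0.00297). Mrpl34 had 2968, 2392 and 2756 in fetal liver and 1818, 1843 and 1780.3 in bone marrow, with no overlap (0.57 ± 0.10, adjusted p = 0.00194).

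Of the large subunit genes counted as mitochondria-specific, Mrpl54, Mrpl37 and Mrpl58 changed most. Mrpl58, a peptidyl-tRNA hydrolase built into the ribosome and linked to the rescue of stalled translation, had 2412, 3184 and 2541 in fetal liver and 1752, 1843 and 1705 in bone marrow. All fetal liver arrays were above all bone marrow arrays (0.61 ± 0.11, adjusted p = 0.00316), though the mean with its dimmer second probe set gave 0.23 and no call (adjusted p = 0.405). Mrpl37 had 992, 1053 and 951 in fetal liver and 608, 711 and 641 in bone marrow, again with no overlap (0.61 ± 0.11, adjusted p = 0.00289). Mrpl54 had 876, 896 and 969 in fetal liver and 688, 522 and 576 in bone marrow (0.63 ± 0.13, adjusted p = 0.00586). A dimmer second probe set of Mrpl54 ran the other way (-0.83 ± 0.34, adjusted p = 0.100 in the fit of single probe sets), and the mean of both gave -0.10.

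**Figure D2:**
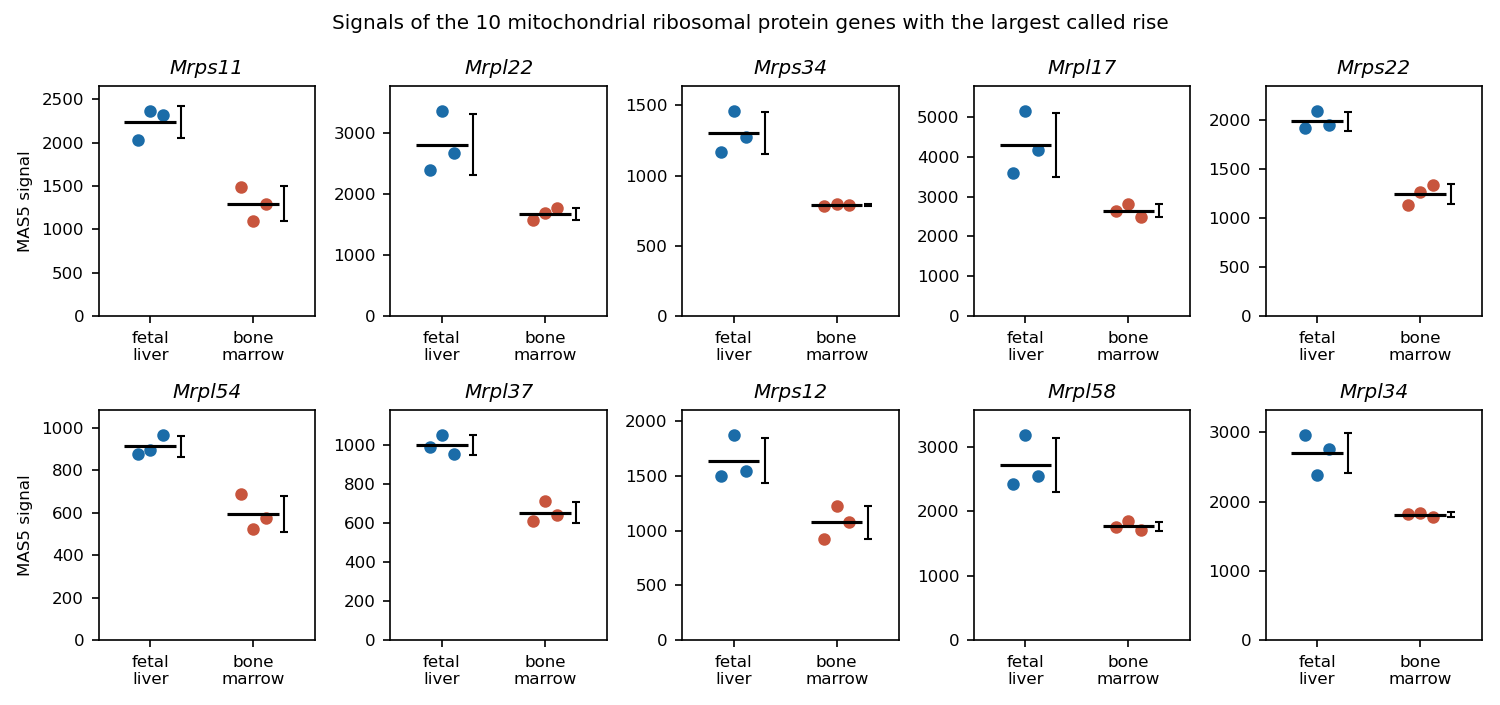
MAS5 signal (vertical axes, from 0) of the 10 genes with the largest called rise, 3 fetal liver arrays in blue left of 3 bone marrow arrays in red, with group mean (line) and SD (bar). In all 10 panels the lowest fetal liver array lies above the highest bone marrow array.

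The stalk of the large subunit, which brings in the elongation factors, was represented by Mrpl10, Mrpl11 and Mrpl12, and all 3 rose. Mrpl11 had 6448, 6961 and 6454 in fetal liver and 5398, 5312 and 5225 in bone marrow (0.32 ± 0.07, adjusted p = 0.00538). Mrpl10 had 775, 755 and 769 in fetal liver and 528, 611 and 593 in bone marrow (0.41 ± 0.11, adjusted p = 0.0214). Mrpl12 had 4252, 5907 and 4521 in fetal liver and 3276, 4017 and 3301 in bone marrow (0.46 ± 0.13, adjusted p = 0.0240). The Mrpl10 call was lost without bone marrow replicate 1 or 3 or fetal liver replicate 3 (adjusted p = 0.0615 to 0.0683), and the Mrpl12 call without bone marrow replicate 1 or 3 or the variance trend (adjusted p = 0.0727 to 0.0840). Tufm, the elongation factor that works at the stalk, rose by a like amount (0.44 ± 0.08, adjusted p = 0.00297).

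Of the 4 brightest genes Mrpl11, Mrpl51 and Mrpl24 were called and Mrpl52 was not. Mrpl51 had 6515, 7760.5 and 6472 in fetal liver and 4820.3, 5229.5 and 4986 in bone marrow (0.46 ± 0.09, adjusted p = 0.00311), with the groups apart, but the mean of its 3 probe sets gave 0.069 and no call (adjusted p = 0.655). Mrpl24, near the exit of the tunnel, had 5234, 6146 and 5249 in fetal liver and 4381, 4736 and 4528 in bone marrow (0.28 ± 0.08, adjusted p = 0.0274). That call was lost without the variance trend and without bone marrow replicate 1, 2 or 3 (adjusted p = 0.0507 to 0.0902). Mrpl52 had 4747, 6250.4 and 4894 in fetal liver and 5141, 5409 and 5292 in bone marrow. The fetal liver arrays of Mrpl52 lay on both sides of bone marrow, and its log2 fold change was -0.01, with a 95% interval of -0.24 to 0.23.

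Mammals have 3 homologues of the bacterial protein S18, and structures place the product of Mrps18a in the large subunit. Mrps18a had 2159, 2105 and 2332 in fetal liver and 1602, 1355 and 1672 in bone marrow (0.52 ± 0.11, adjusted p = 0.00502). Mrps18b had 3613, 4206 and 3878 in fetal liver and 3195, 3128 and 3174 in bone marrow (0.30 ± 0.08, adjusted p = 0.0187), a call lost without the variance trend and without fetal liver replicate 3 or bone marrow replicate 2 or 3 (adjusted p = 0.0557 to 0.0693). Mrps18c had 3388, 4316 and 4354 in fetal liver and 3359, 3524 and 3129 in bone marrow. Only Mrps18c overlapped between tissues, through fetal liver replicate 1, and it was not called (0.26 ± 0.11, adjusted p = 0.0910); without that array it was (0.38, adjusted p = 0.00769). Whether the 3 homologues differ from each other was not tested.

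Of the 23 genes not called, 19 had a positive log2 fold change, where 54.3% of all genes, called or not, had one. In 9 of the 23 all fetal liver arrays lay above all bone marrow arrays, where 26.7% of all genes, called or not, did so. Mrpl45, which attaches the ribosome to the inner membrane, was one of the 9. It had 869, 959.9 and 915 in fetal liver and 702, 758 and 782 in bone marrow (0.29 ± 0.11, adjusted p = 0.0622). Mrpl33, Mrpl44, Mrps5 and Mrpl52 were the genes with a value below 0. Mrpl33 had 1379, 1191 and 1458 in fetal liver and 1658, 1575 and 1432 in bone marrow, which overlap (-0.21 ± 0.11, adjusted p = 0.165). Mrpl44, an RNase III-like protein, had 4937, 3909 and 4175 in fetal liver and 4432, 4773 and 4322 in bone marrow (-0.06 ± 0.10, adjusted p = 0.660). Mrps5 had 681, 396 and 754 in fetal liver and 788, 595 and 475 in bone marrow, with the largest standard error of any member (-0.04 ± 0.26, adjusted p = 0.909), and 2 further probe sets of it had all fetal liver arrays above bone marrow (0.31 and 0.48, neither called). Mrpl4 was not called either (0.07 ± 0.12, adjusted p = 0.693).

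Mrpl39 and Mrps6 are orthologues of genes on human chromosome 21, the chromosome carried in excess in Down syndrome, where GATA1s arises. Mrpl39 had 2629, 2904 and 2698 in fetal liver and 1822, 2432 and 2051 in bone marrow, and rose (0.39 ± 0.11, adjusted p = 0.0244). That call was lost without the variance trend and without fetal liver replicate 2 or 3 or bone marrow replicate 1 or 3 (adjusted p = 0.0604 to 0.0805). Mrps6 had 2379, 2444 and 2469.5 in fetal liver and 2188, 2074 and 2081 in bone marrow. Its groups did not overlap, but it was not called (0.20 ± 0.08, adjusted p = 0.0749).

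Array by array, the shift was present in every fetal liver sample but not at the same size. The median member lay above its bone marrow mean by 0.30 on fetal liver replicate 1, 0.46 on replicate 2 and 0.38 on replicate 3 (log2 units), and within 0.03 of it on every bone marrow array. Fetal liver replicate 2 was the highest fetal liver array for 58 of the 76 genes and replicate 1 the lowest for 51. Within-tissue SD on the log2 scale had a median of 0.13 in fetal liver and 0.07 in bone marrow. Without fetal liver replicate 2 the median log2 fold change was 0.35 and 50 genes were called, where 14.4% of all genes were called higher. Without bone marrow replicate 3 the median was 0.38 and 35 genes were called, where 10.9% of all genes were called higher.

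A second look came from the other probe sets of the same genes on the same arrays, which are only partly independent. Whether the probe sets of a gene share probes was not checked. The 76 genes had 156 probe sets, of which 80 were not used above, and 72 of these, from 38 genes, passed the filter. In a fit of all 27022 filtered probe sets, 17 of the 72 were called higher and none lower, where 11.8% of all were called higher and 15.0% lower. Their log2 fold change was above 0 for 55 of 72 with a median of 0.19, against 0.00 for all filtered probe sets. Of 26 called genes with such a probe set, 12 had one that was called higher as well. Mrpl15 had 8 probe sets; 3 of the further ones were called higher (0.42, 0.47 and 0.58) and the 4 dimmer ones, not called, lay between -0.18 and 0.20; the mean of all 8 gave 0.26 and no call (adjusted p = 0.0811). Mrpl19 and Mrps23, not called by the probe set used, each had a further one called higher (0.54 and 0.40). No gene had probe sets called in opposite directions.

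**Figure D3:**
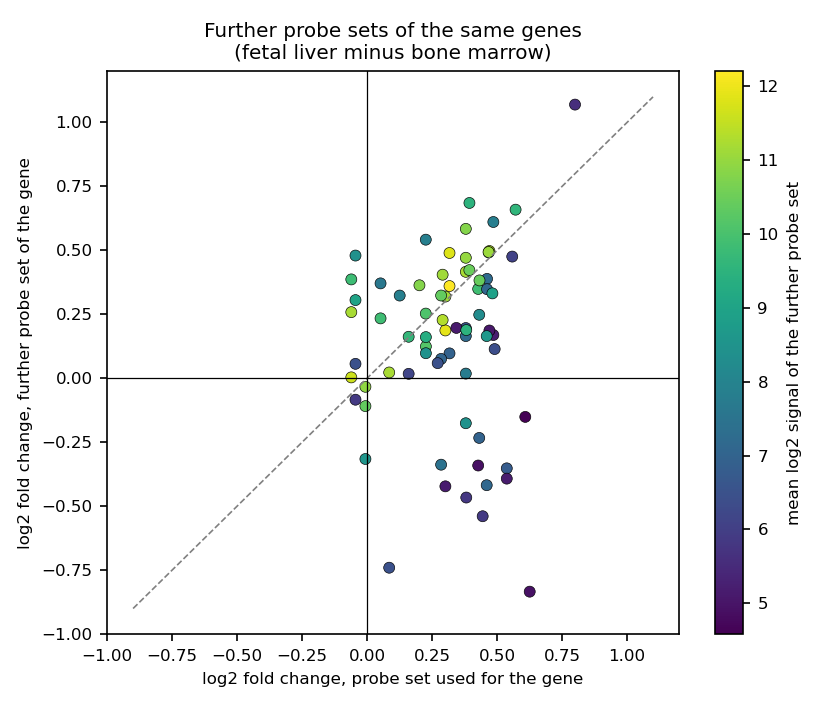
Log2 fold change of 72 further probe sets (vertical axis) against that of the probe set used for the same gene (horizontal axis), coloured by mean log2 signal; the dashed line marks equality. Of the 72 points 55 lie above 0, and most points below 0 are of low signal.

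Other genes of mitochondrial translation were counted in lists, to be read against the 17.8% of all genes called higher. Of 4 tested ribosome components with other names all 4 rose: Gadd45gip1 (0.73 ± 0.14, adjusted p = 0.00343), Chchd1 (0.46 ± 0.09, adjusted p = 0.00468), Ptcd3 (0.34 ± 0.11, adjusted p = 0.0406) and Dap3 (0.27 ± 0.09, adjusted p = 0.0429). Translation factors rose in 7 of 11 cases and fell in none, with a median of 0.32. Among them Gfm2, which helps recycle the ribosome, had 417, 328 and 409 in fetal liver and 214, 202 and 229 in bone marrow (0.83 ± 0.16, adjusted p = 0.00356). The initiation factor Mtif2 rose by less (0.34 ± 0.09, adjusted p = 0.0170). Of 23 assembly factors 7 rose (30.4%), 16 were not called and none fell, with a median of 0.18. Malsu1, which acts in large subunit assembly, was at 0.55 ± 0.13 (adjusted p = 0.00993), the ribosomal RNA methyltransferase Mrm2 at 0.69 ± 0.17 (adjusted p = 0.0117) and Fastkd2 at 0.47 ± 0.12 (adjusted p = 0.0128).

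Of 16 genes that charge mitochondrial transfer RNAs 3 rose, a share of 18.8% that is close to the 17.8% of all genes, and none fell, with a median of 0.23. The arginyl enzyme Rars2 had 1733, 1997 and 1895 in fetal liver and 1164, 1098 and 1239 in bone marrow (0.68 ± 0.10, adjusted p = 7.67e-04), and Tars2 (0.42 ± 0.14, adjusted p = 0.0432) rose as well. Pars2 also rose, with 211, 252 and 235 in fetal liver and 105, 131 and 114 in bone marrow (adjusted p = 0.00285). Of 15 genes of mitochondrial transcription and RNA stability 5 rose and none fell (median 0.21). The messenger RNA stabilisers Slirp (0.43 ± 0.07) and Lrpprc (0.50 ± 0.10) and the transfer RNA processing enzyme Elac2 (0.54 ± 0.12) were among them. Tfam, which packages mitochondrial DNA and starts its transcription, had 2307, 1931 and 2109 in fetal liver and 1943, 2362 and 2094 in bone marrow. Its groups overlapped (-0.01 ± 0.11, adjusted p = 0.947), while Polrmt, the mitochondrial RNA polymerase, was not called (0.03 ± 0.15, adjusted p = 0.885).

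Nuclear regulators of mitochondrial genes formed another list. Of 8 tested none rose and 2 fell, where 18.3% of all genes fell. Myc had 1909.7, 1982 and 1333 in fetal liver and 2973, 3386 and 3155 in bone marrow, with the groups apart (-0.88 ± 0.15, adjusted p = 0.00160). Ppargc1b, a coactivator of mitochondrial biogenesis, fell as well (-0.60 ± 0.18, adjusted p = 0.0275). Nrf1 (0.04 ± 0.14), Gabpa (-0.00 ± 0.15) and Yy1 (0.05 ± 0.08) were not called. These are transcript levels, and protein activity was not measured.

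The respiratory chain and the cytosolic ribosome were set beside the mitochondrial ribosome. Of 70 respiratory chain and ATP synthase genes 19 (27.1%) were called higher and none lower, where 17.8% of all genes were called higher. Their median log2 fold change was 0.21, and 67 of the 70 lay above 0, as did 72 of the 76 members and 54.3% of all genes. In 39 of the 70 all fetal liver arrays lay above all bone marrow arrays, where 26.7% of all genes did so. Ndufc1 (0.35 ± 0.07), Ndufs5 (0.55 ± 0.11) and Cyc1 (0.37 ± 0.09) had the smallest adjusted p. Only cytosolic ribosomal protein genes with a probe set of a single gene symbol were listed, 42 in all, so genes without one are missing. Of 41 tested, 2 (4.88%) were called higher and none lower, with a median of 0.09 and 36 of the 41 above 0. The 2 were Rpl14 (0.64 ± 0.09) and Rpl41 (0.34 ± 0.11). On fetal liver replicates 1, 2 and 3 the cytosolic median lay 0.01, 0.29 and -0.03 log2 units from bone marrow, so its value rested on replicate 2. Without that array the medians were 0.35 for mitochondrial ribosomal, 0.13 for respiratory chain and -0.02 for cytosolic ribosomal genes. The difference between the lists was not tested.

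**Figure D4:**
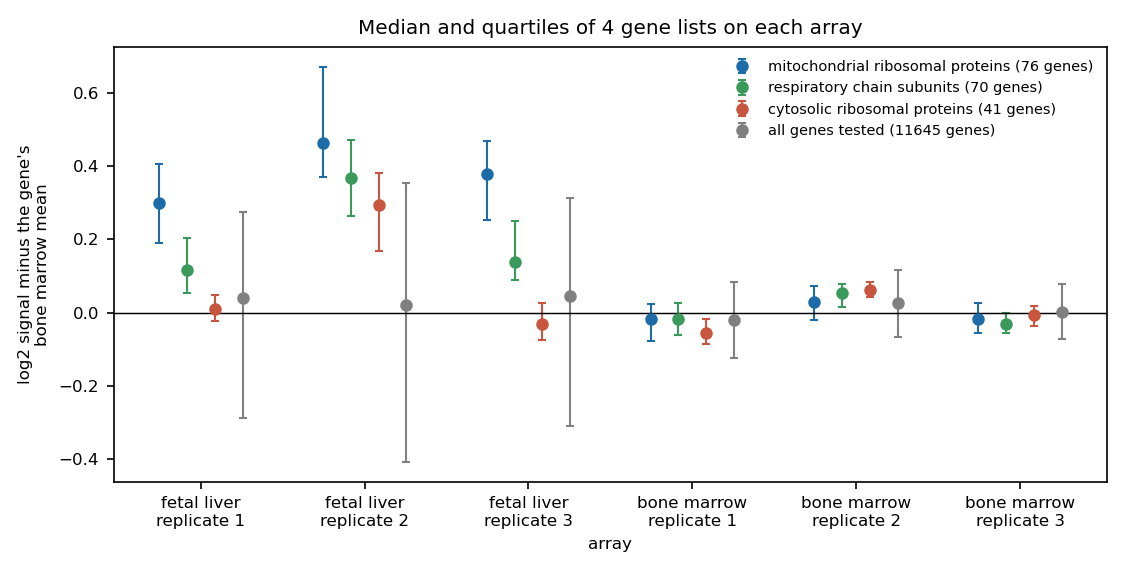
Log2 signal minus each gene's bone marrow mean (vertical axis) on the 6 arrays, as median and quartiles over 76 mitochondrial ribosomal, 70 respiratory chain, 41 cytosolic ribosomal and all 11645 tested genes. Blue points lie at 0.30, 0.46 and 0.38 on the fetal liver arrays, and the cytosolic points near 0 except on replicate 2.

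The promoter windows shown above belong to a set of 73 windows of 67 members in the RefSeq table, each with 250 bases before and 50 after an annotated start, searched on both strands for exact matches. The ETS and GABPA motif was found in 34.2% of the member windows, against 17.6% of windows of protein-coding genes tested and 8.86% of all 32851 windows. The YY1 motif was found in 15.1%, against 5.09% and 2.38%, and the NRF1 motif in 16.4%, against 10.2% and 4.6%. At least 1 of these 3 was present in 54.8% of member windows, against 29.0% of windows of tested genes and 14.2% of all. The E-box CACGTG, bound by MYC among others, was found in 9.59%, against 9.93% and 7.15%, and the GATA motif in 15.1%, against 6.45% and 11.2%. The YY1 motif was in 10 of 47 windows of called genes and in 1 of 26 windows of genes not called, the ETS and GABPA motif in 18 and 7, the NRF1 motif in 8 and 4, the E-box in 2 and 5 and the GATA motif in 6 and 5. The 26 windows come from 20 genes, with 4 for Mrpl48, 3 for Mrpl2 and 2 for Mrps16. All 3 Mrpl2 windows held the E-box, so 3 of the 5 E-box windows of genes not called are from 1 gene. A match is a run of letters and no evidence of binding, and no test was made on these shares.

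**Figure D5:**
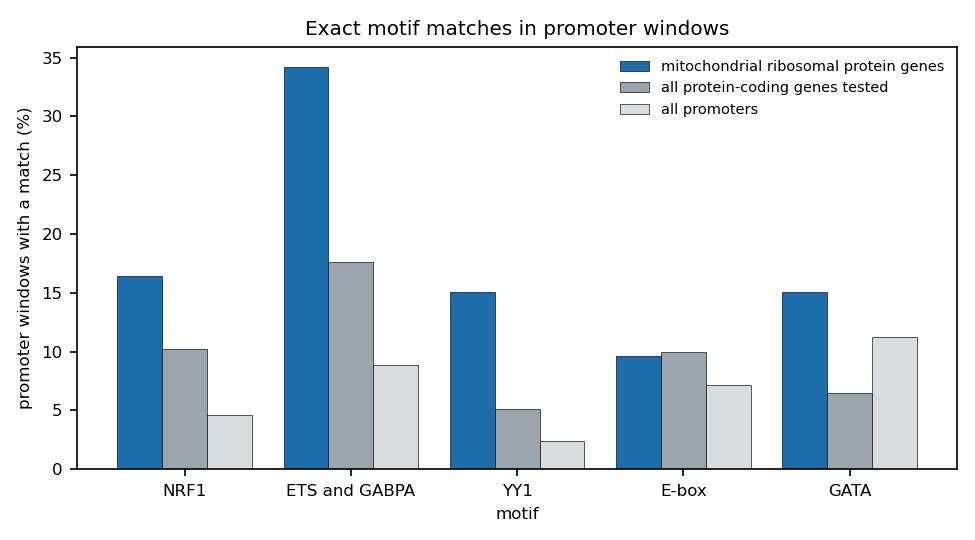
Share of promoter windows (percent, vertical axis, from 0) with an exact match to each of 5 motifs, for member windows, windows of protein-coding genes tested and all windows in the table. The ETS and GABPA bar of the members stands at 34.2% and the YY1 bar at 15.1%, against 17.6% and 5.09% for tested genes.

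Some members start back to back with another gene. Of 67 members with a promoter entry 23 (34.3%) had a protein-coding gene starting on the opposite strand within 1000 bases upstream, as did 13.6% of the 9167 tested genes with an entry. Mrps11 and Mrpl46 were the only pair in which both were members. Mrpl46 had 916, 1345 and 1016 in fetal liver and 813, 647 and 778 in bone marrow, and it rose along with Mrps11 (0.54 ± 0.16, adjusted p = 0.0284). The Mrpl46 call was lost with the replicate block (adjusted p = 0.0572), without the variance trend, and without fetal liver replicate 2 or 3 or bone marrow replicate 2 or 3 (adjusted p up to 0.0984). Of the 21 partners that were not members 4 rose, 1 fell and 16 were not called, with a median of 0.24; 17.8% of all genes were called higher, so the share of partners is close to that of all genes. Eme1, a DNA repair gene beside Mrpl27, rose (1.45 ± 0.15), and Pnpla7, beside Mrpl41, fell (-0.94 ± 0.15). Mrps12 starts 147 bases from Sars2, the mitochondrial seryl-tRNA synthetase, which had 309, 410.4 and 375 in fetal liver and 292, 277 and 207 in bone marrow. That partner did not overlap between tissues but was not called (0.50 ± 0.19, adjusted p = 0.0632).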

How the data were processed

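Each array's deposited column holds a linear intensity for every probe set. The submitters' processing notes name MAS5 for it, with no version stated there. Of 45101 probe sets 64 were controls. Of the rest, 34945 carried 1 gene symbol in the platform annotation, 932 several and 9160 none listed. The symbols of all 76 members matched a RefSeq gene table (GRCm38.p6) by Entrez identifier. Of the members' chosen probe sets, 10 end in _s_at or _x_at, names Affymetrix gives to probe sets that can match other transcripts; they include those of Mrpl37, Mrps12, Mrpl11 and Mrps6, and 6 of the 10 were called.

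Tests used log2 signal without a pseudocount. Probe sets with a mean above the 40th percentile, a signal of 22.9, were kept (27022), and the brightest per gene was used (11645 genes). The model had tissue as its only term and was fitted in limma 3.58.1 under R 4.3.3 (4 residual degrees of freedom) with a variance prior that follows signal; p-values were adjusted by Benjamini-Hochberg over all genes tested, with a threshold of 0.05. On simulated data of 11645 genes the recovery was 66% for 2-fold and 92% for 4-fold changes, and 6 genes simulated without change were called. The labels call samples biological replicates without naming animals, so how far the p-values reflect spread between animals is not known.

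The members and lists were chosen with earlier results of these data known. Genes named by rule were the 10 called members with the largest fold change in each direction, the 4 brightest and 3 dimmest, the Mrps18 homologues and the human chromosome 21 orthologues, with up to 3 called genes per related list. Mrpl12, Mrpl15, Mrpl19, Mrpl21, Mrpl33, Mrpl44, Mrpl45, Mrpl46, Mrpl47, Mrpl55, Mrps21, Mrps23, Mrps36, Tfam, Polrmt, Nrf1, Gabpa, Yy1, Sars2, Eme1 and Pnpla7 were named after their values were seen. The division into bacterial counterparts and mitochondria-specific proteins comes from general knowledge and not from these data. Mrps18a, Mrps18b, Mrpl47 and Mrpl55 were placed with the mitochondria-specific genes despite their bacterial homologues, and other placings may be open to question. Tables were made in pandas 2.3.3 and figures in matplotlib 3.10.9, under Python 3.11.15. Alternatives are given in the closing section.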

Additional observations from a re-analysis of the deposited data

How the results depend on the processing

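Under all 17 alternatives no member was called lower and the median log2 fold change of the members stayed above 0; 24 genes were called higher in every one. Median centring over all probe sets gave a median of 0.74, with 71 members and 46.2% of all genes called higher. In that setting 6725 genes were called in either direction. Centring on the filtered probe sets, chosen after seeing the data, gave 0.56, with 68 members and 31.3% of all genes called higher. Centring over all probe sets moved the median of all genes to 0.38 and the share of higher among called genes to 80.0%, against 49.3%; centring on the filtered probe sets moved them to 0.20 and 68.4%. The median member lay 0.36 above the median gene under both and in the fit reported. That gap could not change, because centring shifts every gene on an array alike. Under quantile normalization, which can change it, the gap was 0.29. Leaving out each array gave 35 to 59 members called higher. The lowest was without bone marrow replicate 3 (10.9% of all genes called higher) and the highest without fetal liver replicate 1 (18.8%). Same-numbered arrays share only a number (their deviations correlated at -0.08, 0.07 and -0.11). With the replicate block 53 members were called higher, 51 of them shared, where 15.9% of all genes were called higher. In all 3847 genes were called with that block. Without the variance trend 40 members and 14.6% of all genes were called higher. With the mean of probe sets 43 members and 17% of all genes were called higher. With array weights 64 members and 27.2% of all genes were called higher, so calls rose among all genes too. The 22 members named by rule gave 374 values, of which 333 kept direction and call, 18 lost the call, 9 gained it and 14 changed sign. Among these, sign changes touched Mrps5, Mrpl52, Mrpl4 and Mrpl54. Mrps5 was at 0.061 under quantile normalization, 0.29 and 0.11 under the 2 centrings, 0.14 with the mean of probe sets, 0.36 with array weights, and -0.22 to 0.24 leaving out each array. Mrpl52 was at 0.33 and 0.15 under the 2 centrings and -0.13 to 0.067 leaving out each array, and Mrpl4 at -0.0028 to 0.11 leaving out each array. With the mean of probe sets 3 called members changed sign: Mrpl54 (-0.10), Mrpl21 (-0.07) and Mrps21 (-0.05). The cause of these changes was not tested.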
